A study of Mus musculus with 12 samples.

Results

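Old and young gastrocnemius muscle, the large muscle of the calf, were compared in mice whose muscle lacks PGC-1alpha by genotype. PGC-1alpha, encoded by Ppargc1a, is a transcriptional coactivator of mitochondrial genes. The comparison took the 3 arrays labelled as old (24 months) knock-out and the 3 labelled as young (10 weeks) knock-out, which are 6 of the series' 12 arrays. The other 6 are 3 young and 3 old wild-type arrays of the same ages. Every gene that had a probe set naming it alone was measured, which gave 18194 genes from 34958 of the 45101 probe sets. All mice were of a mixed C57Bl/6N/6J/129 background, and the knock-out came from Cre driven by myogenin, a gene of differentiating muscle cells. Both groups compared carry that deletion, so cells other than muscle keep the gene in both, and age is the difference between them. The labels do not say whether the wild-type mice carried Cre, which sex was used, or whether arrays of a group came from separate animals. The p-values therefore measure only how far these samples scatter, and that scatter may be technical.

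Skeletal muscle loses mass and force late in life. Fibres are sorted into slow, oxidative types and fast types by their myosin and troponin isoforms, and a worn or injured fibre can switch on embryonic isoforms again. Fibres are held in a collagen matrix laid down by fibroblasts and tendon cells, and each is controlled by a motor nerve at the neuromuscular junction. Damaged proteins are cleared by the proteasome, which digests ubiquitin-tagged proteins, and by autophagy, which delivers material to lysosomes.

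Arrays labelled knock-out did not carry less signal on the brightest of the Ppargc1a probe sets. It read 11.14, 11.48 and 12.10 on the log2 scale in young knock-out arrays 1 to 3 and 12.06, 11.84 and 12.33 in the old ones. Wild-type arrays read 10.77, 11.17 and 11.18 when young and 12.09, 11.76 and 11.50 when old. The exons deleted are not given in the sources used here, and a probe set outside them checks nothing, so knock-out below means an array that carries that label. All 5 probe sets of the gene gave a positive age difference in knock-out muscle, from 0.35 to 0.61, and none passed the test, with limma adjusted p-values from 0.133 to 0.42.

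The arrays carried the signals of muscle. All 20 skeletal muscle fibre markers lay above 6.62, the median log2 signal of probe sets naming 1 gene, and their summed signal ran from 707000 to 736000 over the 6 knock-out arrays. Array medians lay between 6.19 and 6.25, and replicates correlated at 0.9885 to 0.9956. Old knock-out array 1 stood apart from the others: on the first principal component of the 6 knock-out arrays, which held 57.1% of the variance, it scored 43.1 against 12.6 and 8.1 for old arrays 2 and 3. Results below are given without that array, or without another, where leaving it out changed a call or moved a count by more than 1.5 times.

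In old knock-out muscle, collagen and tendon genes were lower, while Sln, Ankrd1 and other fibre genes, the embryonic myosin Myh3 and part of the proteasome and autophagy genes were higher. Of the 18194 genes, 1868 passed a limma test at a Benjamini-Hochberg adjusted p under 0.05, which is 10.3% of all. Of these, 883 genes rose (4.85%) and 985 fell (5.41%). The counts of list members below are to be read beside those shares. Most changes were small: the median size among the 1868 was 0.55 on the log2 scale, 782 were under 0.5, and 120 rises and 114 falls were larger than 1. The median standard error of a difference was 0.12, and the median difference over all genes was -0.005. At an unadjusted p under 0.05, 4533 genes (24.9%) passed. The old and young arrays did not overlap for 5230 genes (28.7%), with old above young for 2515 (13.8%) and below for 2715 (14.9%). The count of 1868 fell to 965 without young knock-out array 2, to 833 without young array 3 and to 743 without old array 1 and young array 3 together, of which 671 were among the 1868. In the text, a gene named as risen or fallen kept its call under each of 22 other settings unless an exception stands beside it.

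The largest rise was that of Sln, which encodes sarcolipin, a small inhibitor of the calcium pump of the sarcoplasmic reticulum. It read 8.08, 8.44 and 6.92 in young and 13.01, 11.97 and 9.64 in old knock-out arrays. The rankings of rises and falls took only genes whose groups do not overlap, so every old array was above every young one by rule. The spread was wide in both groups. The difference was 3.73 ± 0.71 (SE), a 13.3-fold rise with a limma adjusted p of 0.00719, and was 2.99 without old array 1 and 4.68 without old array 3. It became 2.55 with an adjusted p of 0.0747 when old array 1 and young array 3 were both left out. A dimmer probe set of Sln gave a difference of 0.48. Ankrd1, a stretch-responsive protein of the sarcomere and nucleus, was far tighter at 8.65, 8.78 and 8.51 against 11.45, 11.62 and 11.41. Its rise was 2.84 ± 0.18, or 7.18-fold, with an adjusted p of 1.72e-05. The 3 values of each group lay close together.

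Mustn1, a small nuclear protein of muscle and skeleton, read 10.54, 10.43 and 10.61 in young and 13.94, 12.85 and 12.84 in old arrays, a 6.42-fold rise (2.68 ± 0.25, adjusted p = 0.000155). Cpne2, a calcium-dependent membrane-binding copine, went from 9.26, 9.22 and 9.71 to 12.70, 12 and 11.73, a 6.72-fold rise (2.75 ± 0.21, adjusted p = 5.27e-05). Old array 1 was the highest of the old arrays for Sln, Mustn1 and Cpne2. Amy1, an amylase that splits starch and glycogen, rose 4.67-fold, from 10.56, 10.60 and 10.15 to 12.78, 12.68 and 12.52 (2.22 ± 0.15, adjusted p = 1.72e-05). Kcnab1, a beta subunit of voltage-gated potassium channels, rose 5.03-fold (2.33 ± 0.38, adjusted p = 0.00329), and here old array 1 at 9.11 was lower than old arrays 2 and 3 at 10.87 and 10.90, and the difference was 2.92 without it.

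Several of the largest rises started from signals near background, which compresses a difference, so no fold is given for them. Krt18, a keratin of simple epithelia, read 5.55, 6.15 and 5.55 in young and 8.01, 10.24 and 8.83 in old knock-out arrays (3.28 ± 0.43, adjusted p = 0.00109, and 2.67 without old array 2). Cd68, a lysosomal glycoprotein of macrophages, read 5.98, 6.68 and 6.69 in young and 10.25, 8.67 and 9.05 in old arrays (2.87 ± 0.41, adjusted p = 0.00164). Groups stood well apart for both. Rhpn2 (2.50), Tekt1 (2.30) and Psg28 (2.27) also rose from young means under 6.62. Orm1, which encodes the acute-phase plasma protein orosomucoid, passed narrowly at 2.94 ± 0.84 (adjusted p = 0.0447). Its old values of 11.68, 8.78 and 7.15 were spread over a wide range, and its call ended under 15 of the 22 settings, with 1.70 and an adjusted p of 0.0803 without old array 1 and a difference of 3.97 without old array 3. The immunoglobulin genes Jchain (2.36) and Igkv8-30 (2.31) completed the 15 largest rises, and their calls ended under 8 and 6 of the settings, with limma adjusted p-values of 0.0828 and 0.0768 without old array 1 and 0.113 and 0.0805 without young array 3. The Igkv8-30 probe set is of a kind that can bind related immunoglobulin transcripts.

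**Figure D1:**
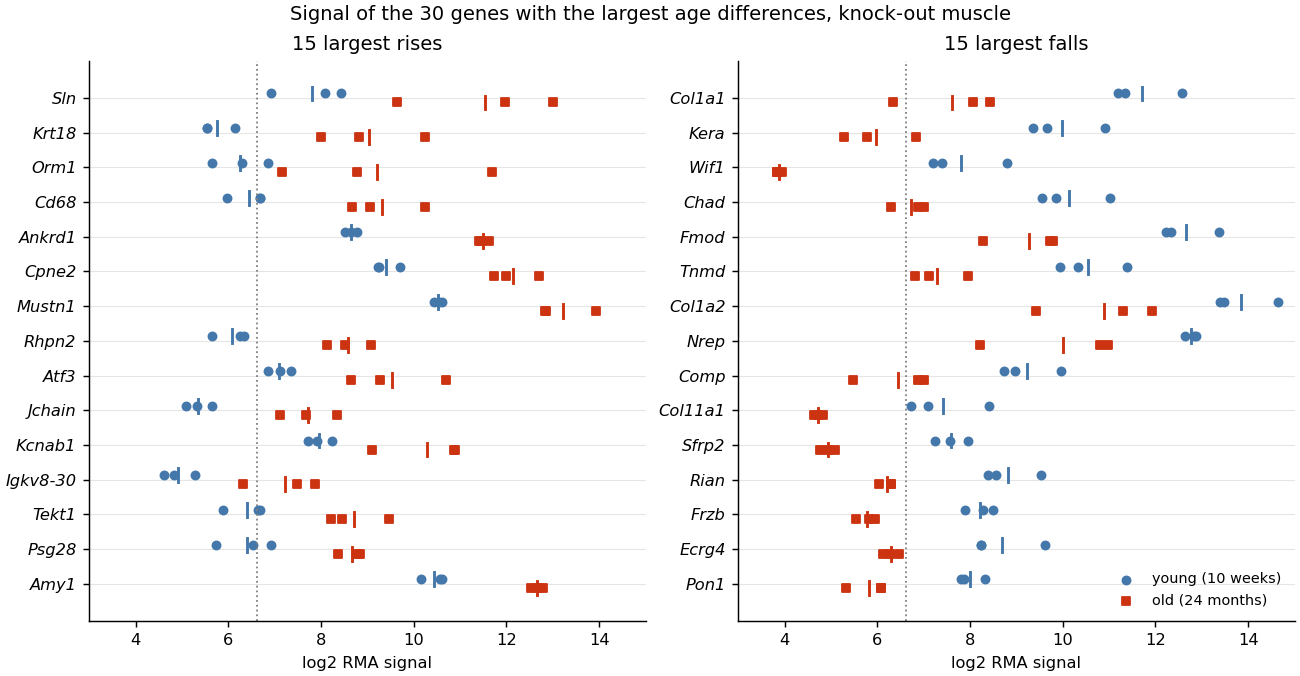
Log2 signal (horizontal axis) of the 15 genes with the largest rises (left) and the 15 with the largest falls (right) between young and old knock-out muscle. Each point is 1 array, vertical bars are group means, and the dotted line is the median signal of 6.62. Genes whose groups overlap were not eligible. Old values of Sln spread from 9.64 to 13.01, while those of Ankrd1 lie between 11.41 and 11.62.

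The largest falls were those of tendon and collagen matrix genes. Col1a1, the alpha 1 chain of type I collagen, read 11.34, 11.20 and 12.58 in young and 6.34, 8.07 and 8.44 in old knock-out arrays. No old array came near a young one, and young array 3 was the highest while old array 1 was the lowest. The fall was -4.09 ± 0.59, or 17-fold, with a limma adjusted p of 0.00194, and -3.45 without old array 1. Col1a2, the partner chain, fell 7.78-fold from 13.48, 13.40 and 14.64 to 9.42, 11.29 and 11.93 (-2.96 ± 0.53, adjusted p = 0.0053), and by 2.23 without old array 1, while its other probe sets gave -4.11 and -0.66. Kera, the small proteoglycan keratocan, fell from 9.35, 9.67 and 10.91 to 5.29, 6.83 and 5.78 (-4.01 ± 0.41, adjusted p = 0.000342). Wif1, a secreted inhibitor of Wnt ligands, fell from 7.21, 7.40 and 8.80 to 3.84, 3.84 and 3.94 (-3.93 ± 0.34), where the old arrays were at the foot of the scale.

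Genes that mark tendon made up much of the rest. Chad, the collagen-binding protein chondroadherin, fell 10.6-fold from 9.55, 9.85 and 11.02 to 6.30, 6.87 and 7.01 (-3.41 ± 0.34, adjusted p = 0.000234). Tnmd, or tenomodulin, a membrane protein of mature tendon cells, fell 9.5-fold from 9.93, 10.32 and 11.38 to 6.81, 7.96 and 7.12 (-3.25 ± 0.38, adjusted p = 0.000625). Fmod, or fibromodulin, a proteoglycan that shapes collagen fibrils, fell 10.5-fold (-3.39 ± 0.42, adjusted p = 8e-04) on a probe set open to cross-hybridisation, and its other probe sets gave -2.95 to -3.40. Young array 3 had the highest signal of the 6 arrays for Col1a1, Kera, Wif1, Chad and Tnmd. Comp, a cartilage and tendon matrix protein, fell by 2.77 ± 0.40. Col11a1, a fibril-nucleating collagen, fell by 2.69 ± 0.32. The Wnt-binding proteins Sfrp2 and Frzb fell by 2.67 ± 0.25 and 2.45 ± 0.16, the latter from 7.89, 8.28 and 8.49 to 5.54, 5.94 and 5.83, with -0.88 on a second Frzb probe set. The remaining genes among the 15 largest falls were Nrep, Rian, Ecrg4 and Pon1, with differences from -2.78 to -2.18. The call of Nrep ended when only the groups compared were fitted (adjusted p = 0.0601), its difference was -1.89 without old array 1, and the other probe sets of Rian gave -1.01, -0.03 and -0.36.

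Of 22 tendon cell and tendon matrix genes, a list drawn up after these values were seen and so a description only, 15 fell and none rose, with a median of -1.77 against -0.005 for all genes. The share that fell was 68.2% beside 5.41% of all genes, and leaving out any 1 array left 15 or 16, with 1 rise without old array 1. A list score, the mean over members of each array's log2 signal minus the young knock-out mean, was -0.37, -0.24 and 0.61 for the young and -2.34, -1.69 and -1.59 for the old knock-out arrays. The summed signal of the list was 29600 to 64500 in young and 5590 to 14600 in old arrays. Wild-type muscle showed the same split, with scores of -0.42, -0.50 and -0.36 when young and -1.71, -1.59 and -1.63 when old. How much tendon each dissection held is not given in the labels, and its part in these falls was not tested. In whole tissue, fewer cells of a type and less RNA per cell cannot be told apart.

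**Figure D2:**
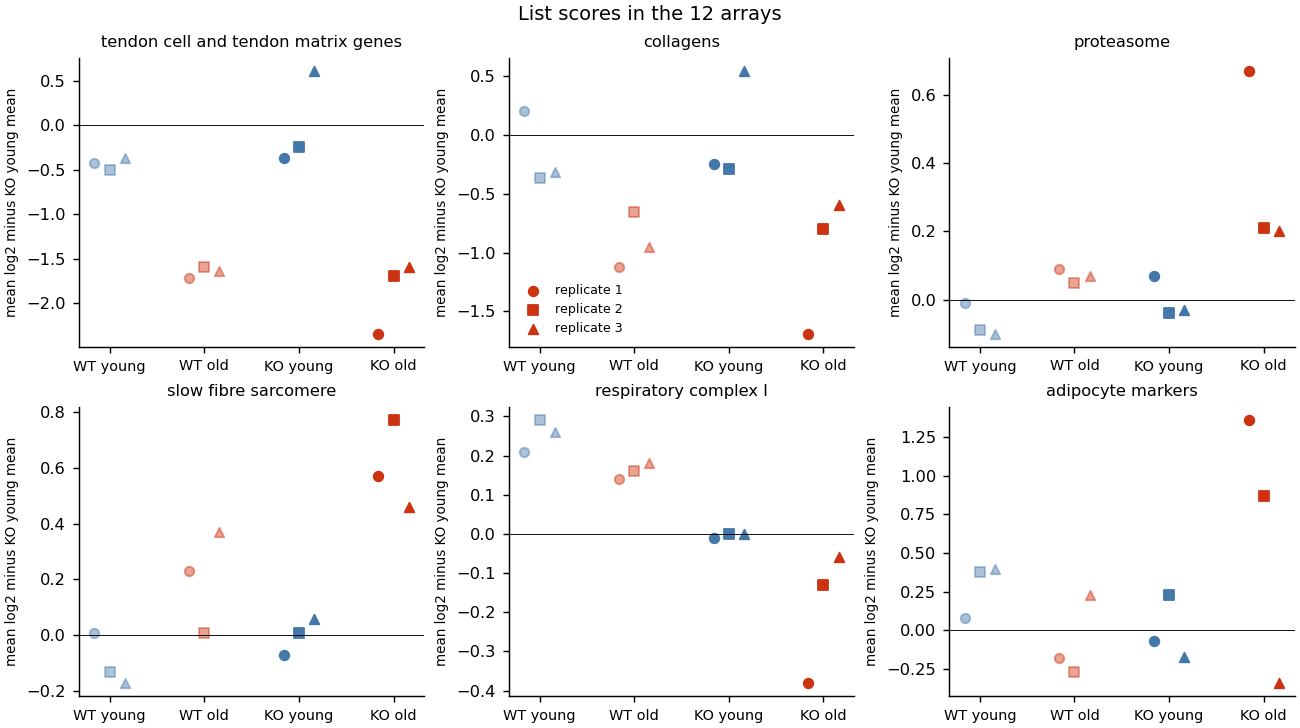
Scores of 6 gene lists (vertical axis, mean log2 signal of the members minus their young knock-out mean) in the 12 arrays, by group. Circles, squares and triangles are arrays 1, 2 and 3 of a group. Tendon scores are lower in every old array than in any young one, and old knock-out array 1 is the most extreme array for the proteasome (0.67) and adipocyte lists (1.36).

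Collagen and other matrix lists, which share members with the tendon list, also held falls. Of 23 collagens 6 fell (26.1%, beside 5.41% of all genes) and none rose, with a median of -0.75, and 4 to 6 fell with any 1 array left out. Of the 6 falls 4 are on the tendon list too, and of the 18 collagens off that list 2 fell, the basement membrane chains Col4a1 and Col4a2. Without young array 3 the calls of Col4a1 and Col4a2 ended, and the 4 falls left were those on the tendon list. Besides the fibrillar chains above, Col12a1, a fibril-associated collagen, fell by 2.02 ± 0.34, although its 3 other probe sets gave -0.17, 0.34 and 0.18. Of 37 matrix glycoproteins and collagen-processing genes 8 fell (21.6%) and none rose, with a median of -0.38. Of the 35 that are not on the tendon list 7 fell. The count of 8 was 4 without old knock-out array 1, 5 without young array 2 and 2 without young array 3, and 1 gene rose without old array 1. Sparc, a collagen-binding glycoprotein, fell 3.06-fold from 12.41, 12.27 and 13.33 to 10.77, 11.08 and 11.32 (-1.61 ± 0.24, adjusted p = 0.00205), with -1.81 and -0.24 on its other probe sets. Collagen scores of the old knock-out arrays were -1.69, -0.80 and -0.60, below all young ones (-0.25, -0.29 and 0.54).

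Fibroblast and fibro-adipogenic progenitor markers fell for 9 of 21 genes (42.9%, median -0.50) and rose for none, and the count was 6 to 11 with any 1 array left out. Their summed signal was 45000 to 66800 in young and 26300 to 36500 in old knock-out arrays, which moves with the collagen and tendon falls, and its part in them was not tested. Tnmd, Fmod and Mkx are among the 9 falls and are on the tendon list too, so the 2 results are not separate. How the Mkx call fared under the other settings is not given here. Pi16, a marker of a stem-like fibroblast population, fell 3.46-fold from 9.35, 9.74 and 9.95 to 7.20, 8.53 and 7.96 (-1.79 ± 0.28, adjusted p = 0.00295), although a second probe set gave 0.17. The markers Mkx, Osr2 and Tcf21 were at or under the median signal in both groups.

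**Figure D3:**
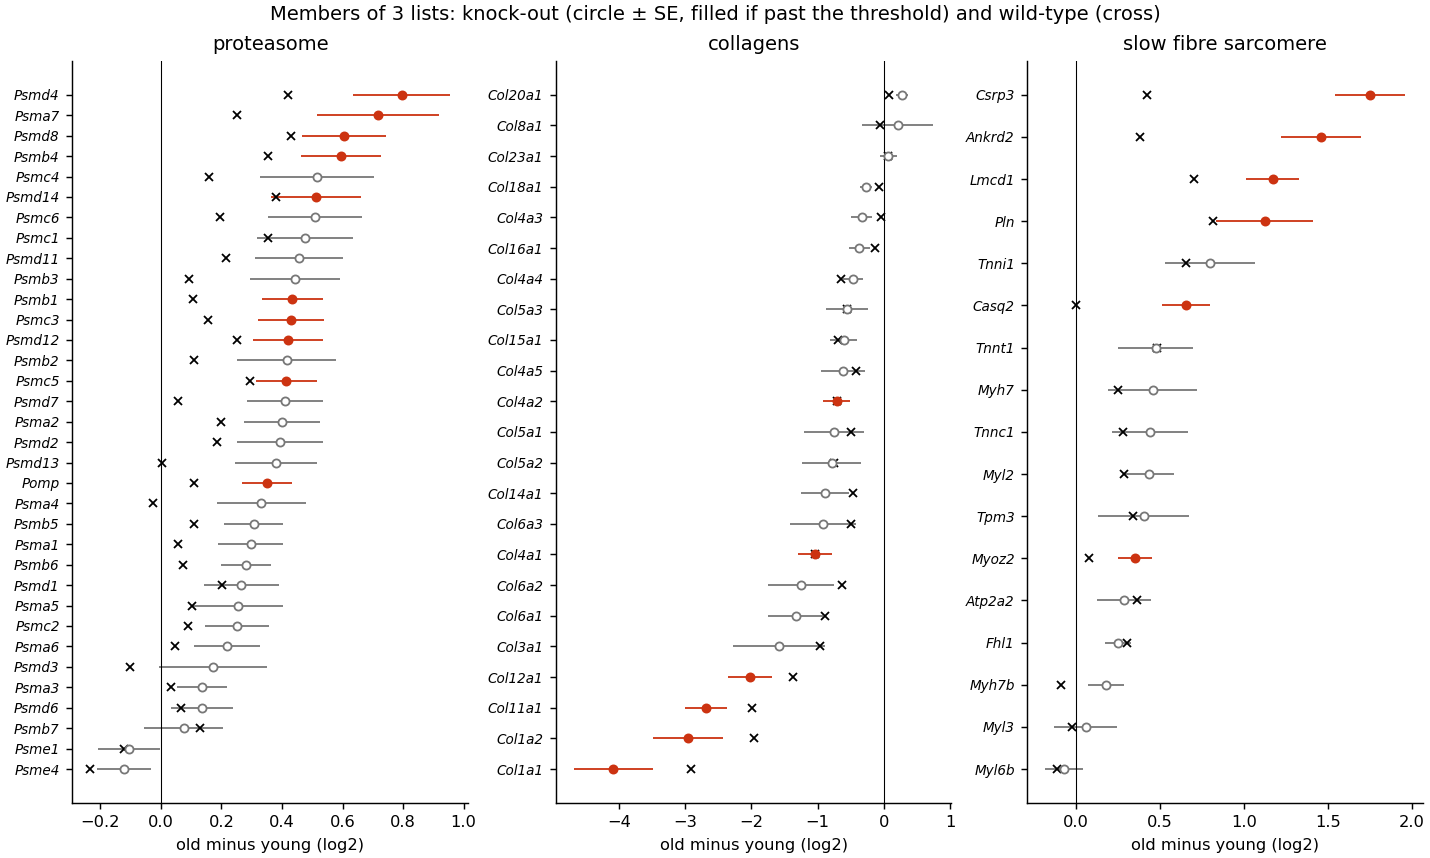
Old minus young difference on the log2 scale (horizontal axis) for each measured member of the proteasome, collagen and slow fibre sarcomere lists. Circles are knock-out muscle with bars of 1 SE, filled where the adjusted p was under 0.05, and crosses are wild-type muscle. Of 34 proteasome genes 32 lie above 0, and of 23 collagens 20 lie below it.

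Genes of the slow fibre sarcomere rose for 6 of 17 members (35.3%, beside 4.85% of all genes), with a median of 0.44, and none fell. Leaving out any 1 array left 4 to 6. The old knock-out scores were 0.57, 0.77 and 0.46, all above the young scores of -0.07, 0.01 and 0.06. Csrp3, a stretch-sensing LIM protein of the Z-disc, rose 3.37-fold from 11.36, 11.40 and 11.31 to 13.08, 13.20 and 13.05 (1.75 ± 0.21, adjusted p = 0.000666). Ankrd2, a relative of Ankrd1 found in slow fibres, rose 2.75-fold from 11.58, 11.57 and 11.73 to 13.60, 12.82 and 12.83 (1.46 ± 0.24, adjusted p = 0.00333). Lmcd1, a LIM protein that acts with calcineurin, rose 2.25-fold (1.17 ± 0.16). The other members that rose were the calcium-binding Casq2, the calcium pump inhibitor Pln and the Z-disc protein Myoz2. These calls were weaker: that of Casq2 ended without young array 1 (limma adjusted p = 0.0539) and with only the groups compared (0.0761). That of Pln ended without young array 2 or 3 or old array 2 or 3 (0.0576 to 0.108), with only the groups compared (0.109) and as the mean of its probe sets (0.0602). That of Myoz2 ended under 16 of the 22 settings, among them without any 1 array other than old array 3. The slow contractile isoforms did not pass: slow myosin heavy chain Myh7 differed by 0.46 ± 0.27 (limma adjusted p = 0.323), slow troponin I Tnni1 by 0.80 ± 0.27 (0.0807) and slow troponin T Tnnt1 by 0.47 ± 0.22 (0.213).

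The fast fibre list barely moved. Of 18 members 1 fell and none rose, with a median of -0.02. That member was Mylk2, the kinase of skeletal myosin light chain, which fell 1.76-fold from 12.71, 12.93 and 12.39 to 11.84, 12.04 and 11.71 (-0.81 ± 0.16, adjusted p = 0.00955). Genes of developing and regenerating fibres rose for 5 of 21 (23.8%, beside 4.85% of all genes) and fell for 2 (9.52%, beside 5.41%), with a median of 0.07. The falls numbered none without young array 3 and 1 without old array 1 or 3, young array 2, wild-type young array 3 or wild-type old array 1. Myh3, the embryonic myosin heavy chain, rose 4.44-fold from 7.35, 7.21 and 7.37 to 9.42, 9.74 and 9.23 (2.15 ± 0.15, adjusted p = 2.07e-05). The 3 old arrays were all far above the young ones. Myl4, the embryonic myosin light chain, rose 1.72-fold (0.78 ± 0.15, adjusted p = 0.00741), with 0.05 on its other probe set. Satellite cell markers, of the muscle stem cell, fell for 5 of 16 genes (31.2%, beside 5.41% of all genes) and rose for none (median -0.30), but 1 fell without young knock-out array 3, and 2 or 3 without any 1 other array except young knock-out array 1. Spry1, an inhibitor of growth factor signalling that keeps satellite cells quiescent, fell 1.64-fold from 9.16, 9.06 and 9.16 to 8.43, 8.40 and 8.42 (-0.71 ± 0.08, adjusted p = 0.000513), with each group's arrays close together.

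Of 29 genes of the neuromuscular junction and of denervation, 5 rose (17.2%, beside 4.85% of all genes) and 4 fell (13.8%, beside 5.41%), with a median of -0.09. The 4 falls were among Lrp4, Sh3kbp1, Ky, Ache and Hdac4. The rises numbered 3 without young knock-out array 2 or 3. The falls numbered 2 without old array 1 or young array 1, and none without young array 2 or 3. Chrna1, the alpha subunit of the muscle acetylcholine receptor, rose 1.72-fold from 9.72, 9.94 and 9.95 to 10.68, 10.63 and 10.64 (0.78 ± 0.09, adjusted p = 0.000625). Gadd45a, a stress gene that is strongly induced by loss of the nerve, rose 3.34-fold from 10.02, 9.84 and 10.28 to 12.50, 11.82 and 11.04 (1.74 ± 0.29, adjusted p = 0.00362). Musk, the receptor kinase that organises the junction, rose by 0.85 ± 0.19 (limma adjusted p = 0.015), a call that ended without young array 3 (0.0565) and under 2 further settings. Subunits of the receptor that differ between fetal and adult muscle did not pass, with 0.08 ± 0.20 for the fetal Chrng and -0.22 ± 0.11 for the adult Chrne. Both group means of Chrng were under the median signal, so a change in it could be missed.

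The 200 bases before the start of Chrna1 are printed because this promoter is a textbook target of the myogenic factors, which bind E-boxes. They were taken from RefSeq on GRCm38.p6 and lie at chr2:73580339-73580538 on the minus strand. Capitals mark the letters CAGCTG, a motif that is its own reverse complement.
Chrna1: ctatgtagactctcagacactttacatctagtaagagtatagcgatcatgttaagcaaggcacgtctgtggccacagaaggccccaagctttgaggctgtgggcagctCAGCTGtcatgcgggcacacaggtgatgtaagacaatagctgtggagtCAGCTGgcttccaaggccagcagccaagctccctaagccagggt
The 2 matches lie 92 and 44 bases before the start. Of 32851 windows of the same length 10.9% hold at least 1 match and 0.916% hold 2 or more, and 6 of 35 windows of the neuromuscular junction list hold one (17.1%). A match is a description of the letters and not a bound site.

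Of 34 proteasome genes 10 rose (29.4%, beside 4.85% of all genes), 24 did not pass and none fell, with a median of 0.40, and 32 of the 34 were higher in old knock-out muscle. For 23 of them every old array lay above every young one, against 13.8% of all genes. The count of 10 was 6 without old array 1, 1 without young array 2, 1 without young array 3 and 16 without old array 3. Of all genes, 3.66%, 2.5%, 2.12% and 5.33% rose in those settings, in the same order. The median stayed between 0.21 and 0.48 with any 1 array left out. Psmd4, the ubiquitin receptor of the regulatory particle, rose 1.73-fold from 12.71, 12.58 and 12.45 to 13.85, 13.15 and 13.13 (0.79 ± 0.16, limma adjusted p = 0.00951, and 0.0696 when only the groups compared were fitted), with 1.01 and 0.00 on its other probe sets. Psmb1, a beta subunit of the catalytic core, rose 1.35-fold from 12.73, 12.59 and 12.63 to 13.33, 13 and 12.92, with 0.19 and 0.20 on its other probe sets. Its call ended under 5 of the 22 settings, among them without young array 2 (0.0735) or 3 (0.0678). The proteasome score was 0.67 in old array 1 and 0.21 and 0.20 in old arrays 2 and 3, all above the young scores of 0.07, -0.04 and -0.03. The 2 members that were lower were Psme1 and Psme4, activators that cap the core in place of the regulatory particle.

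Autophagy and lysosome genes rose for 7 of 34 (20.6%, beside 4.85% of all genes) and fell for none, with a median of 0.13. Leaving out any 1 array left 5 to 7 rises, with 1 fall without old array 1. Gabarapl1, which coats autophagosomes, rose 2.79-fold from 10.43, 10.46 and 10.31 to 12.69, 11.41 and 11.54 (1.48 ± 0.25, adjusted p = 0.00369). Sqstm1, or p62, which links ubiquitin-tagged cargo to autophagosomes, rose 1.77-fold from 12.83, 12.60 and 12.57 to 13.82, 13.26 and 13.39 (0.82 ± 0.13, adjusted p = 0.00329). Old array 1 was the highest for both, and the other old arrays were also above all young ones. Ctsz, a lysosomal protease, rose 1.79-fold (0.84 ± 0.11, adjusted p = 0.00132).

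The atrophy list, of muscle ubiquitin ligases and their regulators, gave 1 rise and 3 falls among 24 genes, with a median of 0.14, 3 rises without young array 3, and 2 without old array 3 or wild-type young array 2. The ligases Trim63 and Fbxo32, known as MuRF1 and atrogin-1, did not pass, at 0.53 ± 0.17 and 0.81 ± 0.33 with limma adjusted p-values of 0.0762 and 0.146. The falls were those of Acvr2b, Smad3 and Ube2d1, and the rise was that of Fbxo21, a ubiquitin ligase subunit. Acvr2b, the activin and myostatin receptor, fell 1.73-fold from 8.84, 8.90 and 8.76 to 8.04, 7.96 and 8.12 (-0.79 ± 0.09, adjusted p = 0.000458), with -0.33 and -0.01 on its other probe sets. Smad3, which carries the signal of that receptor family to the nucleus, fell 1.77-fold from 11.51, 11.49 and 11.70 to 10.53, 10.78 and 10.93 (-0.82 ± 0.12, adjusted p = 0.00176), with -0.23 and -0.43 on its other probe sets. Ube2d1, a ubiquitin-conjugating enzyme, fell by 0.42 ± 0.11 (limma adjusted p = 0.0297), a call that ended without old array 1 (0.0878), young array 2 (0.0794) or young array 3 (0.119) and under 2 further settings. Fbxo21 rose by 0.73 (0.0149), and its call ended when only the groups compared were fitted (0.0554) and without old array 1 and young array 3 together (0.0667).

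Stress genes moved in part. Heat shock proteins and cochaperones rose for 6 of 28 (21.4%, beside 4.85% of all genes) and fell for none (median 0.10). The rises numbered 3 without young knock-out array 1 or 2, when 3.31% and 2.5% of all genes rose. Hspb1, a small heat shock protein that binds unfolded and cytoskeletal proteins, rose 1.64-fold from 13.02, 12.94 and 13.22 to 13.84, 13.55 and 13.93 (0.72 ± 0.14, adjusted p = 0.00785). A cell starts the integrated stress response when translation is throttled by amino acid shortage or misfolded protein. Of its 24 genes 3 rose (12.5%, beside 4.85% of all genes) and 1 fell (4.17%, beside 5.41%), with a median of 0.22. Without old array 2, 5 rose. Mthfd2, a mitochondrial enzyme of one-carbon metabolism, rose 2.53-fold from 7.88, 7.88 and 7.82 to 9.11, 8.93 and 9.57 (1.34 ± 0.17, adjusted p = 0.000795). Psat1, of serine synthesis, rose by 1.21 ± 0.19 from a young mean under the median signal. Atf4, which encodes the pathway's central factor and is regulated mainly at translation, fell by 0.34 on its transcript (limma adjusted p = 0.0479), a call that ended under 15 of the 22 settings, among them without any 1 array other than old knock-out array 1.

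Atf3, a factor of the same response, read 6.85, 7.35 and 7.11 in young and 10.70, 9.27 and 8.65 in old knock-out arrays. Old values were all higher and more spread than the young ones. The rise was 5.4-fold (2.43 ± 0.41, adjusted p = 0.00384). The 200 bases before its start, chr1:191183334-191183533 on the minus strand of GRCm38.p6 in RefSeq, are shown because they hold the letters TTGCATCA, one form of the element that ATF4 dimers bind, marked in capitals.
Atf3: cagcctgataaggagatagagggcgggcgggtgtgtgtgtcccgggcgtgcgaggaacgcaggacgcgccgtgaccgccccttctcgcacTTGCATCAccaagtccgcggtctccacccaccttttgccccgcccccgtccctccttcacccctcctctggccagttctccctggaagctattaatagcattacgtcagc
Searched on both strands, these letters occur 1 time, 110 bases before the start. They occur in 210 of the 32851 windows, or 0.639%, and in 4 of the 23 windows of the integrated stress response list (17.4%), those of Atf3, Chac1, Herpud1 and Slc7a11. The match says nothing of binding in this muscle.

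Antioxidant enzymes and metallothioneins rose for 7 of 31 genes (22.6%, beside 4.85% of all genes) and fell for none, with a median of 0.19. The rises numbered 4 without young knock-out array 3, when 2.12% of all genes rose. Gstm2, a glutathione transferase, rose 2.15-fold from 9.74, 9.78 and 9.76 to 10.95, 11.26 and 10.39 (1.11 ± 0.17, adjusted p = 0.00278). Ucp3, the mitochondrial uncoupling protein of muscle, rose 2.45-fold from 10.27, 10.11 and 11.03 to 11.81, 11.49 and 11.99 (1.29 ± 0.22, adjusted p = 0.00411). Mt2, a metallothionein that binds zinc and copper, read 11.21, 10.35 and 10.40 in young and 13.70, 11.80 and 12.30 in old arrays. Its groups did not overlap, and the difference was 1.95 ± 0.43, or 3.86-fold (limma adjusted p = 0.0156). That call ended without young array 2 (0.0623) or young array 3 (0.0642) and under 2 further settings. Mt1, its neighbour in function, differed by 1.54 ± 0.48 and did not pass (0.0612).

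Metallothionein promoters are known for metal response elements, so the 200 bases before the start of Mt2 are shown, chr8:94172418-94172617 on the plus strand of GRCm38.p6 in RefSeq. Capitals mark the letters TGCNCNC on either strand, where N is any base.
Mt2: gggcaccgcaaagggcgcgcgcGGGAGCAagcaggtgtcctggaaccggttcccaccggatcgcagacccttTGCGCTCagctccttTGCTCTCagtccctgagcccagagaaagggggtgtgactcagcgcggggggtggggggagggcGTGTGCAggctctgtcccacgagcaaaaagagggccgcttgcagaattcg
The 4 matches lie 178, 128, 113 and 50 bases before the start. A single match is common, in 38.6% of the 32851 windows and in 13 of 32 windows of the antioxidant and metallothionein list (40.6%), while 0.715% of windows hold 4 or more. A match describes the letters, and it does not show a metal response element or a bound site. No promoter window was printed for Col1a1, Sln or Psmb1.

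**Figure D4:**
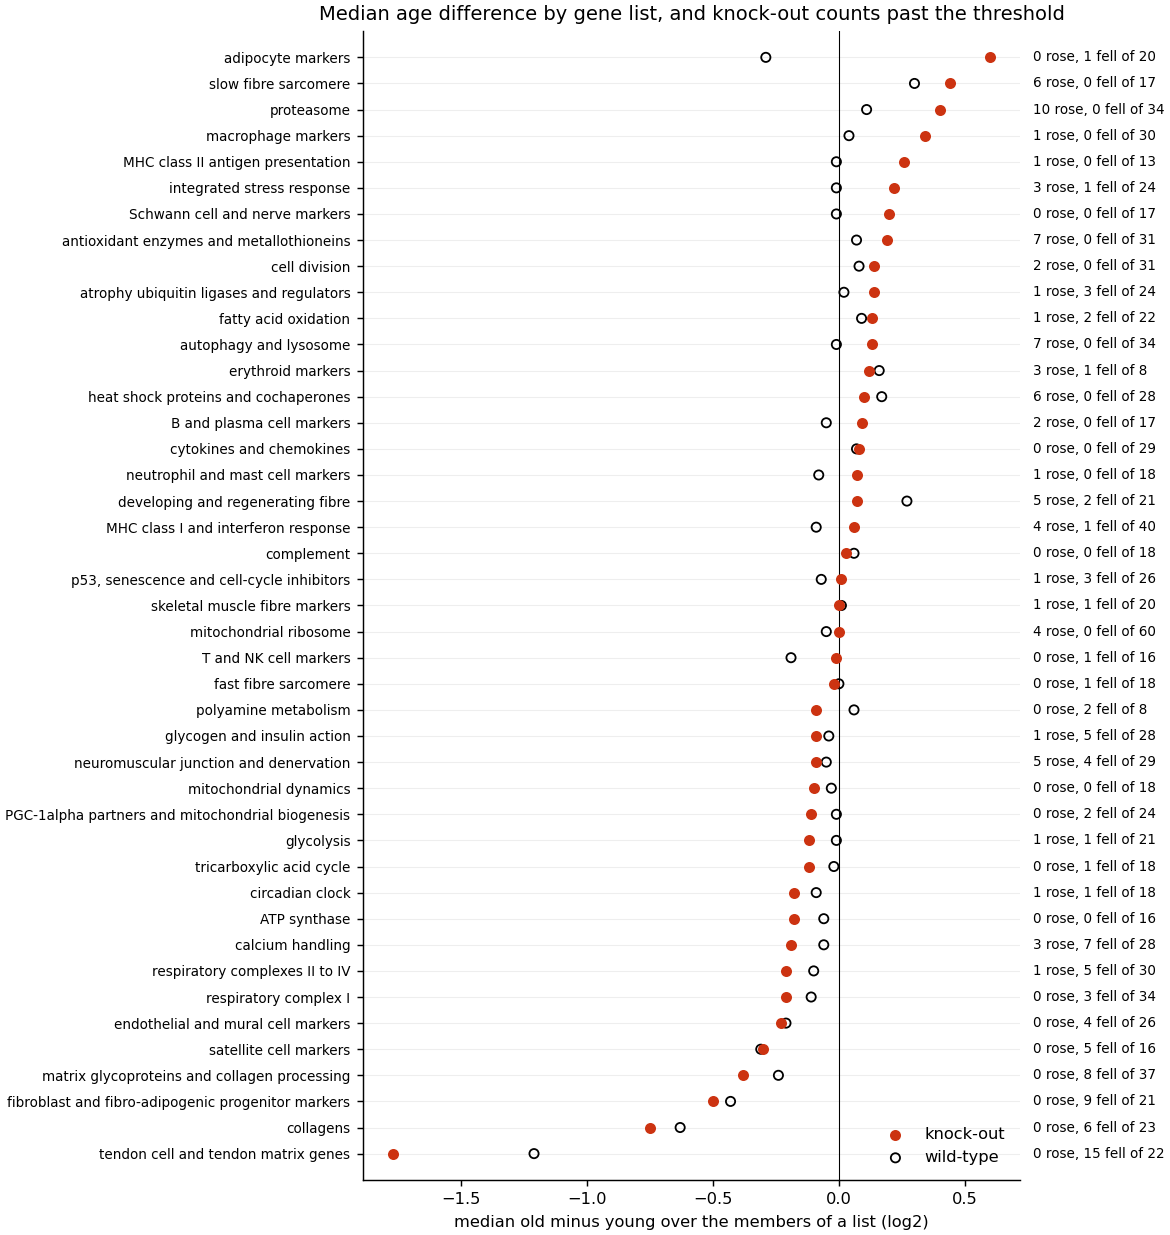
Median old minus young difference on the log2 scale (horizontal axis) over the measured members of each gene list, in knock-out (filled) and wild-type muscle (open), with the knock-out counts of members that rose and fell at the right. The tendon list, drawn up after its values were seen, is lowest at -1.77, and the adipocyte list is highest at 0.60 with no member that rose.

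Respiratory chain genes were lower by small amounts, and few passed. Of 34 complex I genes 3 fell (8.82%, beside 5.41% of all genes) and none rose, with a median of -0.21, while 31 were lower in old knock-out muscle. For 19 of the 34 every old array lay below every young one, beside 14.9% of all genes. Without old array 3 the number that fell was 10, without old array 2 it was 6, without old array 1 or young array 1 it was 1, and without young array 2 or 3 it was 0. Complexes II to IV gave 5 falls and 1 rise among 30 genes (median -0.21). The 5 became 9 without old array 3, 3 without old array 1 or without any one wild-type array, and 1 without young array 2 or 3, when the rise was lost too. Cox7a1, the muscle isoform of a cytochrome oxidase subunit, fell 1.66-fold from 12.86, 12.88 and 12.98 to 11.78, 12.24 and 12.53 (-0.73 ± 0.14, limma adjusted p = 0.00909, and 0.0687 when only the groups compared were fitted). Old array 1 was the lowest for Cox7a1 and had the lowest complex I score, -0.38 against -0.13 and -0.06.

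None of the 16 ATP synthase genes passed limma's test (median -0.18), although 8 were lower at an unadjusted p under 0.05, and 1 fell without old array 3. Nor did any of 18 genes of mitochondrial dynamics (median -0.10), of which 4 were lower at that unadjusted p, while 2 fell without old array 2 and 1 without old array 3. The tricarboxylic acid cycle gave 1 fall among 18 genes, Dlat, a core subunit of pyruvate dehydrogenase, which fell 1.54-fold from 11.28, 11.27 and 11.43 to 10.52, 10.65 and 10.95 (-0.62 ± 0.11). Its adjusted p of 0.00566 became 0.0575 when old array 1 and young array 3 were both left out. Mitochondrial ribosome genes had a median of 0.00 with 4 rises of 60, a share of 6.67% that is near the 4.85% of all genes. The rises numbered none without young array 2 and 2 without old array 1 or 2 or young array 1 or 3, while 3 genes fell without old array 3. Among 24 partners of PGC-1alpha and biogenesis genes 2 fell and none rose, with 3 falls without old array 1 or wild-type young array 1 and 5 without old array 3. Fndc5, the membrane protein from which irisin is cut and a target of PGC-1alpha, fell 2.6-fold from 8.94, 9.25 and 9.35 to 7.46, 7.78 and 8.17 (-1.38 ± 0.17, adjusted p = 0.00078).

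Fuel genes changed one by one. Slc16a3, the lactate exporter of glycolytic fibres, fell 2.13-fold from 9.32, 9.27 and 9.45 to 8.19, 8.09 and 8.50 (-1.09 ± 0.13, adjusted p = 0.000786). Pdk4, the kinase that shuts off pyruvate dehydrogenase, rose 2.45-fold from 12.84, 12.65 and 13.92 to 14.75, 14.10 and 14.43 (1.29 ± 0.26, adjusted p = 0.00984, and 0.0725 when only the groups compared were fitted). No other member of the 21 glycolysis genes passed, while 4 fell without old array 3 and 2 without wild-type young array 1. Irs1, the docking protein of the insulin receptor, fell 2.22-fold from 13.24, 13.08 and 13.56 to 12.29, 12.22 and 11.92 (-1.15 ± 0.19, adjusted p = 0.00329). The list of glycogen and insulin action gave 5 falls and 1 rise among 28 genes. Its falls numbered 2 without old array 1 or any young array and 3 without old array 2, when 4 rose, and none rose without young array 3. Fatty acid oxidation gave 1 rise and 2 falls of 22 with a median of 0.13, none in either direction without old array 1 or without young array 2 or 3, and 2 rises and 3 falls without old array 3. Its rise was also lost without young array 1 or any 1 wild-type array other than old array 2.

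Calcium handling genes fell for 7 of 28 (25%, beside 5.41% of all genes) and rose for 3 (10.7%, beside 4.85%), with a median of -0.19. The falls numbered 4 without young array 2 and 2 without young array 3. The rises were Sln, described above, Camk2b and Cacng1. Camk2b, the beta subunit of calcium/calmodulin kinase II, rose 1.8-fold from 10.39, 10.46 and 10.16 to 11.11, 11.19 and 11.23 (0.84 ± 0.10, adjusted p = 0.000613). Its alpha counterpart Camk2a moved the other way, from 12.88, 12.99 and 13 to 11.58, 12.32 and 12.41 (-0.85 ± 0.17, adjusted p = 0.00877, and 0.067 when only the groups compared were fitted), with -0.10 to -1.02 on its other probe sets. Cacng1, a subunit of the calcium channel of the T-tubule, rose 1.5-fold from 12.91, 12.95 and 12.62 to 13.50, 13.35 and 13.40 (0.59 ± 0.10, adjusted p = 0.00392).

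Genes of p53, senescence and cell-cycle inhibition did not move together, with 1 rise and 3 falls of 26 and a median of 0.01. Eda2r, a receptor of the tumour necrosis factor family that is a p53 target, rose 3.08-fold from 10.22, 9.61 and 9.26 to 12, 11.04 and 10.92 (1.62 ± 0.27, adjusted p = 0.00406). Trp53inp2, which promotes autophagy, fell 1.84-fold from 13.20, 13.30 and 13.50 to 12.07, 12.49 and 12.81 (-0.88 ± 0.15, adjusted p = 0.00471), with -0.24 on a second probe set. The cell-cycle inhibitor Cdkn1a, or p21, differed by 0.51 ± 0.29 and did not pass, and Cdkn2a, which encodes p16, lay near the foot of the scale at group means of 4.37 and 4.35.

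Immune genes gave few calls. Of 29 cytokines and chemokines and of 18 complement genes none passed limma's test at an adjusted p under 0.05. At an unadjusted p under 0.05, 1 cytokine was higher and 1 lower, and 4 complement genes were higher and 1 lower. Of each list 1 gene rose without old array 1, and 1 complement gene without old array 2. Macrophage markers had a median of 0.34 and 26 of 30 were higher, but Cd68 alone rose. Without old array 1 or without wild-type old array 2 there were 2 rises. Their summed signal was 7250 to 11600 in young and 11700 to 17400 in old knock-out arrays, and 7 of the 30, among them Aif1, Itgam and Cx3cr1, had both means under the median signal. Genes of class I presentation and the interferon response rose for 4 (10%, beside 4.85% of all genes) and fell for 1 (2.5%, beside 5.41%) of 40. The rises numbered none without young array 1 or 3, 1 without old array 1, 2 without old array 2, and 6 without wild-type young array 1. B and plasma cell markers gave 2 rises of 17, including Jchain, with 11 of the 17 under the median signal, with none rising without any 1 young and 1 without any 1 old knock-out array. Class II presentation gave 1 rise of 13, Lgmn, a lysosomal protease (0.80, limma adjusted p = 0.0238), which was lost without any 1 knock-out array other than old array 1. For T and NK cells 12 of 16 and for neutrophils and mast cells 17 of 18 markers were under it.

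Fat cell markers differed widely between the old arrays. Their score was 1.36, 0.87 and -0.34 in old knock-out arrays 1 to 3 and -0.07, 0.23 and -0.17 in the young ones, with summed signals of 99200 to 161000 and 97800 to 105000. The median difference over 20 markers was 0.60, beside -0.29 in wild-type muscle, and 18 of the 20 were higher in old knock-out muscle. None rose by limma, with 5 higher at an unadjusted p under 0.05. Slc2a4, the glucose transporter that muscle also expresses, fell by 0.37 ± 0.10 (limma adjusted p = 0.0286). The Slc2a4 call ended without any 1 of the young arrays, among others. Without old array 3, 12 of the 20 rose, when 5.33% of all genes rose. Adipoq, the fat cell hormone adiponectin, differed by 0.88 ± 0.78 with an SD of 2.08 in the old group. Endothelial and mural cell markers fell for 4 of 26 (15.4%, beside 5.41% of all genes, median -0.23) and rose for none, or for 1 without old array 3. Pdgfrb, the receptor of pericytes, fell 1.94-fold from 10.05, 10.21 and 10.73 to 9.36, 9.24 and 9.52 (-0.95 ± 0.15), and Cdh5, the endothelial junction cadherin, fell 1.63-fold from 8.72, 8.60 and 8.94 to 8.17, 7.86 and 8.12 (-0.71 ± 0.13), with -0.05 on its other probe set. Schwann cell and nerve markers gave no call in limma's test (median 0.20), with 4 of 17 higher at an unadjusted p under 0.05 and 9 under the median signal, and 1 rose without old array 1 or without wild-type young array 1 or 2. The part of these cell markers in the differences above was not tested.

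Age had the same direction in wild-type muscle for most of these genes. In wild-type, 659 genes (3.62%) passed limma's test between ages, 300 up (1.65%) and 359 down (1.97%), with 3017 (16.6%) at an unadjusted p under 0.05. The 2 age comparisons share no array. Both use the same estimate of each gene's spread, made from all 12 arrays, so their lists of calls are not independent. Of the genes that rose, 220 did so in both genotypes, which is 24.9% of the knock-out rises and 73.3% of the wild-type ones. Of those that fell, 259 did so in both, or 26.3% and 72.1%. No gene rose in knock-out and fell in wild-type, and 2 fell in knock-out and rose in wild-type, Hmga2-ps1 and Tph1. The knock-out fall of Tph1 ended without young array 3 (limma adjusted p = 0.0645) and with only the groups compared (0.0533). It also ended without old array 1 and young array 3 together (0.131). That of Hmga2-ps1 ended under 12 of the 22 settings, with 0.128 without old array 1. Among the 1868 genes called in knock-out muscle 1804 (96.6%) had the same sign in wild-type. The share with the same sign over all genes was not computed, so how far 96.6% exceeds it is not known. Over all genes the differences correlated at r = 0.67, a description across genes that are not independent. Of the 1387 called in knock-out alone, 687 had an unadjusted p under 0.05 in wild-type muscle in the same direction.

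The shared changes were close in size for several of the genes above. Wild-type differences were 3.85 for Sln, 2.88 for Krt18, 2.43 for Ankrd1 and 2.14 for Myh3, beside 3.73, 3.28, 2.84 and 2.15 in knock-out. On the falling side Kera gave -3.63 in wild-type beside -4.01, and Col1a1 gave -2.91 beside -4.09. Tendon genes had a wild-type median of -1.21 and collagens of -0.63. The proteasome list had a wild-type median of 0.11 with no rise by limma, against 6 higher and 1 lower at an unadjusted p under 0.05. Complex I had a wild-type median of -0.11 with no fall by limma, against 4 lower at an unadjusted p. Csrp3 differed by 0.42 in wild-type muscle, beside 1.75 in the knock-out, and Ankrd2 by 0.38 beside 1.46. Neither passed in wild-type.

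**Figure D5:**
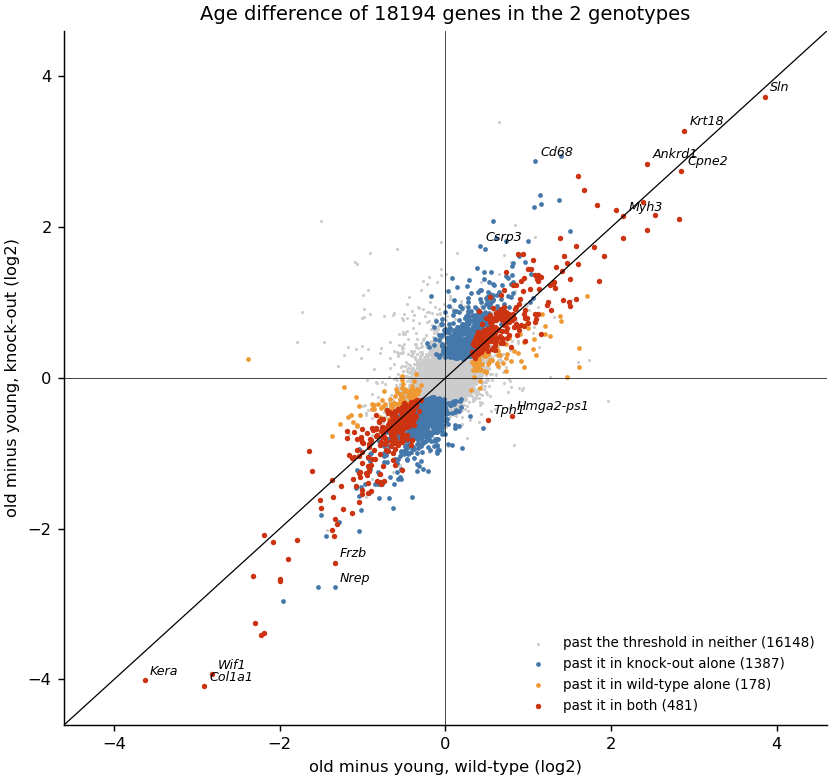
Old minus young difference on the log2 scale of each of 18194 genes in wild-type (horizontal axis) and knock-out muscle (vertical axis), with the line of equality. Colours mark genes past the threshold in neither (16148), in knock-out alone (1387), in wild-type alone (178) and in both (481). Genes past it in both run from Kera and Col1a1 at the lower left to Sln at the upper right.

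Whether age acted differently in the genotypes was tested by the difference of the age differences. No gene passed that limma test (0%), and 992 genes (5.45%) had an unadjusted p under 0.05. The proteasome and Csrp3 differences named above are thus not shown to differ between the genotypes. The same holds for Cd68, whose wild-type value is not given here. Trim14, an antiviral signalling protein, and Hmga2-ps1 had the smallest adjusted p of this test, both 0.236. Trim14 read 5.22, 5.40 and 5.22 in young and 6.00, 6.01 and 6.09 in old knock-out arrays, all under the median signal, a rise of 0.75 ± 0.09 beside -0.11 in wild-type, and its second probe set gave 0.12 in knock-out. Prkcd, protein kinase C delta, fell 1.94-fold in knock-out from 8.33, 8.28 and 8.29 to 7.33, 7.09 and 7.63 (-0.95 ± 0.12, adjusted p = 0.00084) and differed by -0.10 in wild-type, with a knock-out difference of -0.39 on its second probe set. Both patterns were tight within groups, but the test of the difference gave an adjusted p of 0.871 for Prkcd. Without old knock-out array 3, 37 genes passed it, 34 of them with the higher age difference in knock-out and 8 of them on the fat cell marker list, and without wild-type old array 2, 1 gene passed.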

How the data were processed

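Total RNA of gastrocnemius muscle from 12 mouse samples had been hybridised to Affymetrix arrays, 3 for each genotype and age. The authors deposited log2 values made by RMA (background correction, quantile normalization and probe summary) using the affy package; the source is the submitters' processing notes, per the labels. The values ran from 3.2 to 15.95, and array number limits the precision. Of 45101 probe sets, 34958 named 1 gene in the platform annotation, 932 several and 9211 none, and 34754 of the first matched RefSeq. For each of 18194 genes the probe set with the highest mean over the 12 arrays was used. It stood for 9012 genes with more than 1 probe set, and disagreeing probe sets are given in the text.

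Group means of all 12 arrays were fitted with limma 3.58.1 in R 4.3.3 (lmFit and eBayes, 8 residual and 4.15 prior degrees of freedom), with Benjamini-Hochberg adjustment over all genes and a threshold of 0.05. Contrasts were old minus young knock-out, old minus young wild-type, and their difference. The labels give no batch, and array replicates were numbered in accession order. No fold is given where a mean was under 6.62.

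Named genes were Ppargc1a, the 15 largest rises and falls with groups apart and the higher mean at or above 6.62, genes among the 10 smallest p of the difference, and up to 4 members of each list by p. The comparison, lists and rules were chosen with earlier results of these data known. The tendon list, and Myh7, Tnni1, Tnnt1, Chrng, Chrne, Trim63, Fbxo32, Mt1, Mt2, Cdkn1a, Cdkn2a and Adipoq, were added after their values were seen, as were the lists' settings and the setting without old array 1 and young array 3. Alternatives covered probe set choice, dim genes, scaling, variance model, array weights, samples fitted, threshold and each array left out. On simulated shifts of 0.5, 1 and 2 log2 in 18194 genes, the knock-out comparison recovered 50.7%, 97% and 100% of shifted genes, with 11 false calls of 176, and the difference of age differences recovered 7.46%, 74.6% and 95.5%. The simulated noise was independent between arrays and genes, with the same SD in every array. It held no outlying array such as old knock-out array 1, so these rates may not hold for the real arrays.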

Additional observations from a re-analysis of the deposited data

Results flagged for a closer look

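Probe sets outside the comparison also passed its test. Of 9160 expressed-sequence probe sets naming no gene, 351 passed at an adjusted p under 0.05 over all 45101 probe sets, 195 higher and 156 lower in old knock-out muscle. That is 3.83% of them, beside 8.97% of probe sets naming 1 gene, and their median log2 signal was 5.18 beside 6.62. Of the 932 probe sets naming several genes 107 passed, 78 higher and 29 lower.

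The control probe sets for 18S ribosomal RNA were lower in old knock-out arrays by a mean log2 difference of -1.29. Their mean read 14.17, 13.23 and 13.82 in young knock-out arrays against 12.84, 12.80 and 11.70 in the old, so no old array reached a young one. Wild-type arrays split the same way, at 13.81, 13.78 and 13.86 when young and 12.34, 11.74 and 12.17 when old. In knock-out muscle the 3 probe sets gave -1.09, -1.29 and -1.50, with limma adjusted p-values of 0.0244, 0.00476 and 0.0413. The signal of the 5′ end of Actb minus that of its 3′ end, a measure of RNA integrity, was -0.16, -0.18 and -0.26 in young and -0.11, 0.05 and 0.02 in old knock-out arrays. In wild-type arrays it was -0.23, -0.33 and -0.30 when young and -0.13, -0.11 and -0.14 when old. Both measures ran with age in both genotypes, so the agreement between genotypes cannot tell RNA quality apart from age. The part of RNA quality in the age differences was not tested.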

How the results depend on the processing

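The count of 1868 genes in knock-out muscle became 3379 when every probe set was tested, 617 when only the groups compared were fitted (605 of them among the 1868), 2946 at an adjusted p of 0.10 and 743 without old knock-out array 1 and young array 3, and it ran from 833 to 1998 with each array left out in turn. The share of calls that were rises stayed between 43.7% and 51.9%, beside 47.3%. The wild-type count of 659 became 1156 with every probe set, 2451 with array weights, 1112 at 0.10 and 1183 without the 2 knock-out arrays named above, and ran from 208 to 1093 with each array left out. The difference of age differences gave no gene under the other settings and 0 to 37 with each array left out. Of the 30 largest rises and falls 25 kept their call in all 22 settings, and 629 of their 660 values kept direction and call. Over the 289 genes followed across settings (those of the naming rule and further list members), 5512 of 6334 values did, 677 lost the call, 144 gained one and 1 turned: Hspa4, a heat shock protein at 0.56, was -0.43 as the mean of its probe sets, whose others gave -1.69, -0.67 and 0.09. The cause of these shifts was not tested, except that fitting only the groups compared and leaving arrays out leave fewer samples. No paired analysis was possible because the labels carry no replicate numbers. Signals near background limit what dim genes can show.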

Other observations

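Gene groups with few measured members or few calls are given here. In the circadian clock list of 18 genes, Nr1d1, the repressor REV-ERB alpha, fell 1.84-fold in old knock-out muscle from 9.38, 9.55 and 9.88 to 8.97, 8.51 and 8.70 (-0.88 ± 0.14, limma adjusted p = 0.00366). Cry2, a repressor of the clock's negative limb, rose 2.13-fold from 9.02, 9.28 and 8.74 to 10.71, 9.74 and 9.86 (1.09 ± 0.21, adjusted p = 0.00815, and 0.0646 when only the groups compared were fitted). No other clock gene passed, 2 genes of the list fell without old array 2 or without old array 3, and the hour of tissue collection is not given in the labels. Of 31 cell division genes 2 rose, and 19 of the 31 had both means under the median signal. That count was 1 without any 1 young knock-out array or old array 3, and 1 gene fell without old array 3 or wild-type old array 3. Pcna, the sliding clamp of DNA replication and repair, rose 1.41-fold from 10.88, 10.77 and 10.75 to 11.37, 11.20 and 11.31 (0.49 ± 0.08, adjusted p = 0.00347). Tfrc, the transferrin receptor that takes up iron, fell 2.7-fold from 12.69, 12.74 and 13 to 10.63, 11.58 and 11.93 (-1.43 ± 0.24, adjusted p = 0.00393), and its other probe sets gave -0.12 to -1.13. The haem enzyme Alas2 rose by 1.37 ± 0.26 from a young mean under the median signal and was 1 of 3 rises among 8 erythroid genes, whose median was 0.12. Tfrc was the 1 fall, and 1 gene rose without old array 1 or without young array 2 or 3.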
